A study of Saccharomyces cerevisiae with 4 samples.

Results

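The genes described here encode the aminoacyl-tRNA synthetases of the budding yeast Saccharomyces cerevisiae, the enzymes that load amino acids onto tRNA, and ARC1, a tRNA-binding cofactor that is not itself a synthetase. They were chosen by name, 34 genes in all: 19 cytosolic enzymes, 14 mitochondrial enzymes and ARC1. Of these, 33 were among the 5477 genes with a probe of their own on the array, each with exactly 1, and 31 were tested among 5403 genes measured on all arrays. MSF1, the mitochondrial phenylalanine enzyme, had no usable probe. The only probe annotated with that name also names UPS2, of which MSF1 is an older alias. It may measure UPS2 alone and was not used. GRS2 and MSR1 held an exact 0, taken as not measured, on heat shock replicate 1 and were left out of the tests.

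Total RNA was hybridised to 4 arrays with 2 colours. Per the labels, 2 celastrol arrays set yeast given 10 µM celastrol, a plant triterpenoid, for 1 h against yeast given the same volume of its solvent DMSO, and 2 heat shock arrays set yeast at 39 °C for 30 min against yeast kept at 30 °C for 30 min. Treated RNA was labelled with Cy5 and its own control with Cy3 on every array. The strain, genotype and medium were not given in the sources used here, and nothing says whether the replicate arrays came from separate cultures, so p-values measure the spread between these arrays only. Values are log2 ratios, treated over control, which the authors set relative to the median of the chip. A value below 0 is thus a lower level after treatment relative to the median of the chip, and absolute amounts were not measured. Levels given below as a part of the control are relative in the same way. Fewer cells holding a transcript and less of it per cell cannot be told apart. The medians over the 5403 genes lay between −0.14 and 0.037 on the 4 arrays. Replicate arrays correlated across these genes with r = 0.85 for celastrol and r = 0.66 for heat shock.

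Each synthetase recognises 1 amino acid and joins it to the matching tRNAs, which carry it to the ribosome. Yeast keeps a set of these enzymes in the cytosol for the proteins encoded in the nucleus. A separate set, also encoded in the nucleus, is imported into mitochondria, where it serves the few proteins that mitochondrial DNA encodes. For alanine, glycine, histidine and valine a single gene (ALA1, GRS1, HTS1 and VAS1) supplies both compartments from alternative starts. Those genes are counted here with the cytosolic set.

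Transcripts of 8 cytosolic synthetases fell after heat shock, and the median of the mitochondrial enzymes lay near 0. Of the 18 cytosolic genes tested, 8 fell and 0 rose, called at an adjusted p under 0.05 by limma. Those 8 are 44.4% of the cytosolic genes, and over all genes 4.79% were called lower and 4.28% higher. None of the 12 mitochondrial genes and not ARC1 was called in either direction (0 lower, 0 higher). At an unadjusted p under 0.05 there was 1 mitochondrial gene (8.3%), AIM10, against 13 cytosolic ones (72.2%) and 30.4% of all genes. The median log2 ratio of the cytosolic genes was −0.74, or 0.597 of the control level, and that of the mitochondrial genes was 0.081. The same median over all genes was 0.0048.

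**Figure D1:**
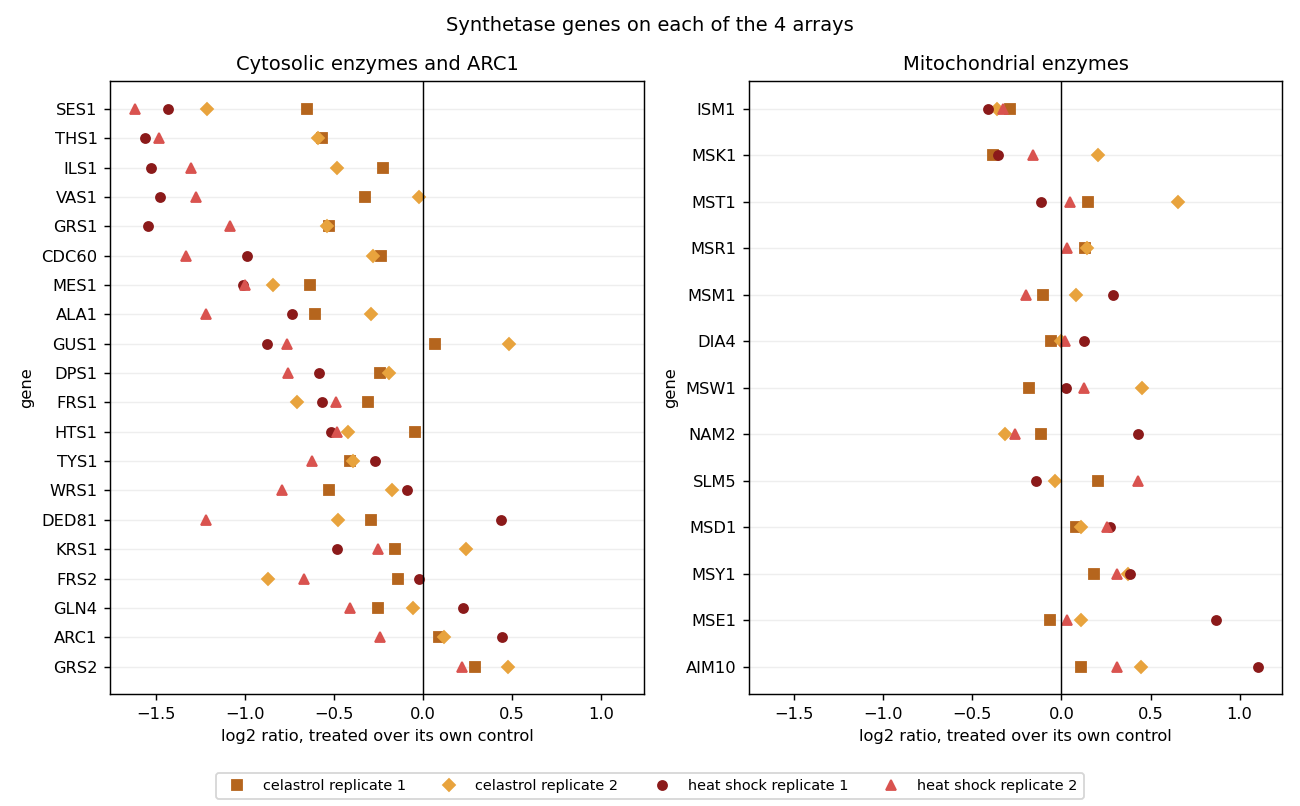
Log2 ratio of treated over control (x axis) for each of the 33 genes with a probe of their own (y axis, ordered by the heat shock mean), with 1 symbol per array. The upper cytosolic genes, SES1 to MES1, have both heat shock symbols near or below −1, while all mitochondrial symbols except 1 heat shock value of AIM10 and 1 of MSE1 lie between −0.41 and 0.65.

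The largest falls after heat shock were those of the serine and threonine enzymes. SES1 (YDR023W), which charges serine tRNA, had log2 ratios of −1.43 and −1.62, a mean of −1.53 ± 0.13 (SD, n = 2 arrays), so 0.347 of its control level remained (limma adjusted p = 0.0192). THS1 (YIL078W), the threonine enzyme, had −1.56 and −1.48 (−1.52 ± 0.06, SD, n = 2, limma adjusted p = 0.0133). For both genes the arrays lay close together, and each was lower on 2 of 2 arrays.

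The branched-chain amino acid enzymes followed. ILS1 (YBL076C), for isoleucine, had log2 ratios of −1.53 and −1.30 (−1.42 ± 0.16, limma adjusted p = 0.0180). VAS1 (YGR094W), for valine in both compartments, had −1.48 and −1.27 (−1.38 ± 0.14, limma adjusted p = 0.0180). CDC60 (YPL160W), for leucine, had −0.99 and −1.33 (−1.16 ± 0.24, limma adjusted p = 0.0230). All 3 branched-chain enzymes of the cytosol therefore fell, to between 0.375 and 0.448 of the control level.

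The other 3 called genes charge glycine, methionine and alanine. GRS1 (YBR121C), for glycine in both compartments, had log2 ratios of −1.54 and −1.08 (−1.31 ± 0.33, limma adjusted p = 0.0210). MES1 (YGR264C), for methionine and so for the start of every protein made in the cytosol, had −1.012 and −1.001 (limma adjusted p = 0.0265). ALA1 (YOR335C), for alanine in both compartments, had −0.73 and −1.22 (−0.98 ± 0.34, limma adjusted p = 0.0467). ALA1 was the called gene nearest the threshold, and without heat shock replicate 2 it was at −0.73. Errors in these 2 paragraphs are SDs over 2 arrays.

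These calls rest on the spread of all 4 arrays. With the heat shock arrays fitted alone, or with either celastrol array left out, none of the 8 passed: they had limma adjusted p-values of 0.0615 (SES1 and THS1) to 0.137 (ALA1), with the same fitted ratios. Against a change of 1.5-fold rather than 0, none of the 8 passed, the lowest limma adjusted p being 0.0503 for THS1.

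The remaining cytosolic genes were not called after heat shock. GUS1 (YGL245W), for glutamate, had −0.88 and −0.76 (limma adjusted p = 0.0537), and DPS1 (YLL018C), for aspartate, had −0.58 and −0.76 (limma adjusted p = 0.0607). FRS1 (YLR060W) and FRS2 (YFL022C), which encode the paired subunits of the phenylalanine enzyme, had −0.56 and −0.49 for FRS1 and −0.022 and −0.67 for FRS2. HTS1 (YPR033C, histidine), TYS1 (YGR185C, tyrosine), WRS1 (YOL097C, tryptophan) and KRS1 (YDR037W, lysine) had mean log2 ratios of −0.50, −0.45, −0.44 and −0.37. All of these genes lay below 0 on both heat shock arrays, as did 16 of the 18 cytosolic genes tested, against 36.7% of all genes. The exceptions were DED81 (YHR019C), for asparagine, at 0.44 and −1.22, and GLN4 (YOR168W), for glutamine, at 0.23 and −0.41. DED81 had the widest gap between replicates among the 31 synthetase genes tested, with an SD of 1.17, and it was not called (limma adjusted p = 0.536).

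GRS2 (YPR081C), the paralog of GRS1 whose product adds little to glycine charging in growing yeast, was not among the genes that were lower. Its celastrol ratios were 0.29 and 0.48, and its single heat shock ratio, from replicate 2, was 0.22. Fitted on those 3 arrays, it was not called after celastrol (limma adjusted p = 0.221). Its single heat shock array leaves no spread to test against. The probes of GRS1 and GRS2 may hybridise to each other's transcripts, which was not tested, and both values are uncertain to that extent.

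ARC1 (YGL105W) binds the methionine and glutamate enzymes in a complex in the cytosol, so its partners are MES1 and GUS1. The ARC1 log2 ratios were 0.44 and −0.24 after heat shock, on either side of 0, and its mean of 0.10 ± 0.48 (SD, n = 2) was not called (limma adjusted p = 0.770). Its ratio thus differed from those of both partners on heat shock replicate 1, where MES1 stood at −1.01 and GUS1 at −0.88. On heat shock replicate 2 all members of the complex were below 0.

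Mitochondrial enzymes spread around 0 after heat shock, from −0.37 for ISM1 to 0.71 for AIM10, and 2 of the 12 lay below 0 on both arrays, against 6 above 0 on both. The highest was AIM10 (YER087W), the mitochondrial proline enzyme, at 1.10 and 0.31 (0.71 ± 0.56, SD, n = 2, limma adjusted p = 0.129). MSE1 (YOL033W), for glutamate, had 0.87 and 0.033, and MSY1 (YPL097W), for tyrosine, had 0.39 and 0.31. Both AIM10 and MSE1 owe their means mostly to heat shock replicate 1. Without heat shock replicate 2 they were at 1.10 for AIM10 and 0.87 for MSE1. A single heat shock array is then left, with no spread between heat shock arrays to test against.

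The lowest mitochondrial genes were ISM1 (YPL040C), for isoleucine, at −0.41 and −0.33, and MSK1 (YNL073W), for lysine, at −0.36 and −0.16. MSD1 (YPL104W, aspartate) had 0.27 and 0.26, the closest pair of values among the mitochondrial genes. DIA4 (YHR011W, serine) had 0.13 and 0.020, MSW1 (YDR268W, tryptophan) 0.026 and 0.12, and MSR1 (YHR091C, arginine) 0.032 on the single array that measured it. The other genes changed sign between the heat shock arrays: MSM1 (YGR171C, methionine) at 0.29 and −0.20, MST1 (YKL194C, threonine) at −0.12 and 0.046, NAM2 (YLR382C, leucine) at 0.43 and −0.26, and SLM5 (YCR024C, asparagine) at −0.14 and 0.43. None of these passed the test, although both values of ISM1 and of MSD1 lay on the same side of 0 and close together.

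After celastrol the cytosolic enzymes again lay below 0, but by less, and 0 of the 31 genes were called higher or lower by limma. Over all genes 3.85% were called higher and 2.68% lower. Of the 18 cytosolic genes, 16 were below 0 on both celastrol arrays, against 49.6% of all genes and 3 of the 12 mitochondrial genes. At an unadjusted p under 0.05 there were 5 cytosolic genes (27.8%) and 0 mitochondrial genes, where all genes had 30.8%. The cytosolic share was thus not above that of all genes. The cytosolic median was −0.37 and the mitochondrial median 0.053, beside −0.11 over all genes. Relative to that shift of all genes, with each array centred on its median, the cytosolic median was −0.25.

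SES1 was again the lowest, with celastrol log2 ratios of −0.65 and −1.21 (−0.93 ± 0.40, SD, n = 2, limma adjusted p = 0.0574). MES1 had −0.63 and −0.84 (−0.74 ± 0.15, SD, n = 2, limma adjusted p = 0.0566), and THS1 had −0.56 and −0.59 (limma adjusted p = 0.0811). GRS1, with −0.52 and −0.54, was next. With the celastrol arrays fitted alone, or without either heat shock array, these 4 genes passed the test, with limma adjusted p-values of 0.00999 for SES1, 0.0141 for MES1, 0.0320 for THS1 and 0.0418 for GRS1. In that fit 1522 of the 5403 genes were called, 1006 of them lower, beside 4 of the 31 synthetase genes. A call there thus does not set these genes apart from genes in general.

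Among the other cytosolic genes, FRS1 and FRS2 had celastrol means of −0.51 and −0.50, so the paired subunits stood side by side, although FRS2 had −0.14 on replicate 1 and −0.87 on replicate 2. ALA1 had −0.61 and −0.29, TYS1 −0.41 and −0.39, DED81 −0.29 and −0.47, ILS1 −0.23 and −0.48, and WRS1 −0.53 and −0.18. CDC60 had −0.24 and −0.28, HTS1 −0.044 and −0.42, DPS1 −0.24 and −0.19, VAS1 −0.32 and −0.019, and GLN4 −0.25 and −0.056. The genes not below 0 on both arrays were KRS1, at −0.16 and 0.24, and GUS1, at 0.069 and 0.49. ARC1, at 0.093 and 0.12, stood above 0 on both celastrol arrays like its partner GUS1 and unlike its partner MES1.

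The mitochondrial genes ranged from −0.33 for ISM1 to 0.40 for MST1 after celastrol. ISM1 had −0.29 and −0.36, the lowest mean here as after heat shock. MST1 had 0.15 and 0.65, AIM10 had 0.11 and 0.45, and MSY1 had 0.18 and 0.37. MSD1 (0.082 and 0.11) and MSR1 (0.13 and 0.14) were also above 0 on both arrays, while NAM2 (−0.12 and −0.31) and DIA4 (−0.057 and −0.004) were below 0 on both. MSE1, MSK1, MSM1, MSW1 and SLM5 changed sign between the celastrol arrays, with means of 0.022, −0.088, −0.012, 0.14 and 0.084.

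Set side by side on each array, the cytosolic genes had the lower median every time. On the celastrol arrays the cytosolic medians were −0.30 and −0.41, against mitochondrial medians of −0.062 and 0.11. On the heat shock arrays the cytosolic medians were −0.66 and −0.89, against mitochondrial medians of 0.20 and 0.040. Cytosolic minus mitochondrial was thus −0.24 and −0.52 on the celastrol arrays and −0.86 and −0.93 on the heat shock arrays. The gap was wider on each heat shock array than on either celastrol array. The genes were chosen by name with earlier results known, so this contrast is given as a description with no test.

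**Figure D2:**
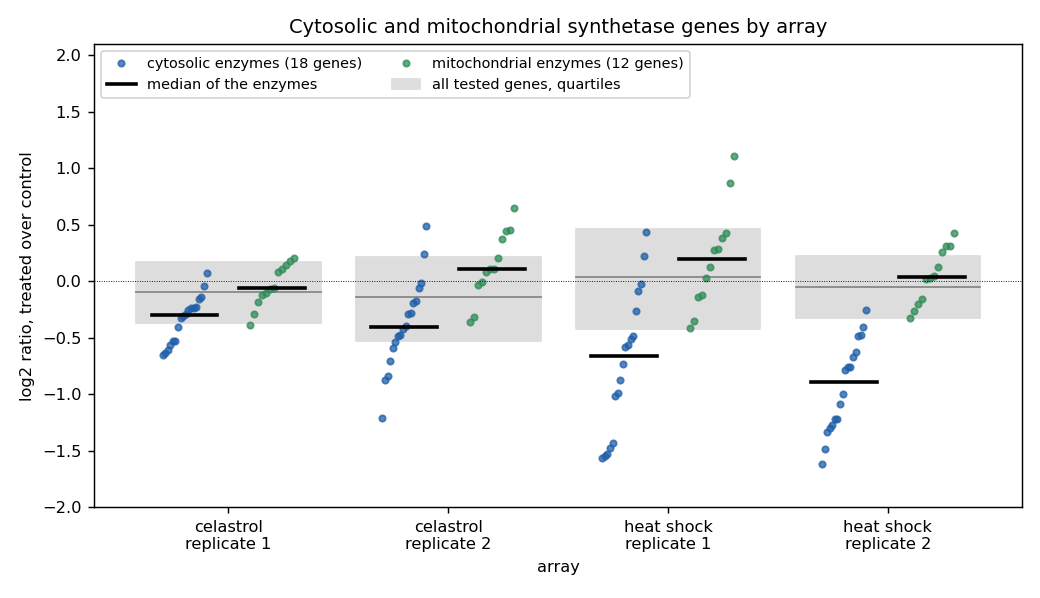
Log2 ratio of treated over control (y axis) on each of the 4 arrays (x axis) for the 18 cytosolic genes and the 12 mitochondrial genes tested, 1 point per gene, with the median of each set as a black bar and the quartiles and median of all 5403 genes in grey. The cytosolic medians of −0.66 and −0.89 on the heat shock arrays fall below the grey quartile band, while the mitochondrial medians stay inside it on all 4 arrays.

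The same contrast appeared within single amino acids. For 11 amino acids each compartment has a tested gene of its own, and the cytosolic gene had the lower heat shock ratio in 10 of 11 pairs on replicate 1 and in 11 of 11 on replicate 2. After celastrol it was lower in 8 of 11 pairs on each array, and in 7 on both. The median pair difference, cytosolic minus mitochondrial, was −0.47 after celastrol and −1.05 after heat shock.

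Serine and threonine showed the widest heat shock gaps. SES1 minus DIA4 was −1.60 ± 0.05 after heat shock and −0.90 ± 0.44 after celastrol, and THS1 minus MST1 was −1.49 ± 0.06 and −0.97 ± 0.37 in the same order (all SD, n = 2). For glutamate the sign depended on the treatment: GUS1 minus MSE1 was 0.26 ± 0.17 after celastrol and −1.27 ± 0.67 after heat shock (SD, n = 2). Isoleucine and leucine had almost no gap after celastrol, with ILS1 minus ISM1 at −0.029 and CDC60 minus NAM2 at −0.041, beside −1.05 and −1.24 after heat shock. The narrowest heat shock gap was that of lysine, where KRS1 minus MSK1 was −0.11. The asparagine pair, DED81 and SLM5, had an SD of 1.58 between the heat shock arrays and no settled sign there.

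**Figure D3:**
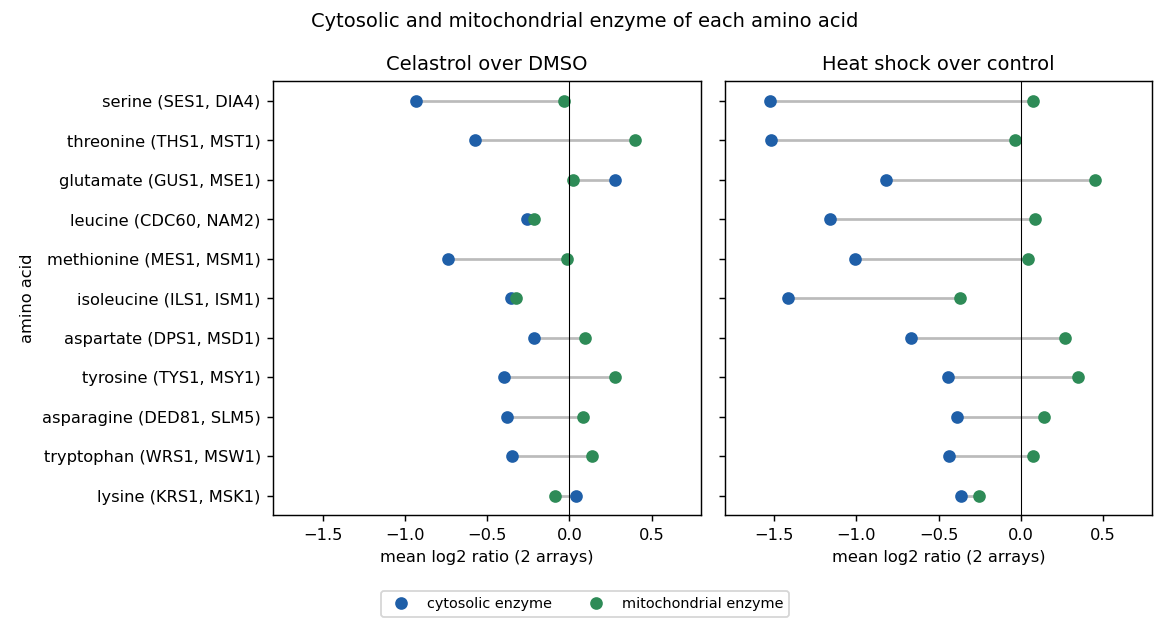
Mean log2 ratio over 2 arrays (x axis) of the cytosolic and the mitochondrial gene for 11 amino acids (y axis), joined by a line, after celastrol (left) and heat shock (right). The lines are long for serine, threonine, glutamate, leucine, methionine and isoleucine after heat shock, with gaps of −1.05 or beyond, and short for leucine and isoleucine after celastrol.

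The genes that serve both compartments went with the cytosolic set. ALA1, GRS1, HTS1 and VAS1 had a median of −0.34 after celastrol and −1.14 after heat shock, against −0.37 and −0.60 for the 14 other cytosolic genes tested. The chemical class of the enzyme separates 2 unrelated folds of the catalytic domain, and both classes held calls after heat shock. Of 8 cytosolic class I genes tested, 4 were called (CDC60, ILS1, MES1 and VAS1). Of 10 in class II, 4 were called (ALA1, GRS1, SES1 and THS1). Over all genes 4.79% were called lower. Cytosolic medians were −0.30 in class I and −0.48 in class II after celastrol, and −0.91 and −0.60 after heat shock. In the mitochondrial set both classes had medians between 0.005 and 0.11 in each treatment.

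The difference between treatments was tested in the same fit, as celastrol minus heat shock. No gene of the 31 was called by limma (0 higher, 0 lower), where 0.537% of all genes were called higher and 0.574% lower. At an unadjusted p under 0.05 there were 6 of the 31 (19.4%), all cytosolic, against 13.7% of all genes. Both celastrol arrays lay above both heat shock arrays for 12 of 18 cytosolic genes and for 1 of 12 mitochondrial genes, MST1, beside 18.1% of all genes. The median difference was 0.43 for cytosolic genes and −0.065 for mitochondrial genes, with −0.086 over all genes.

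VAS1 had the largest difference, with −0.32 and −0.019 after celastrol against −1.48 and −1.27 after heat shock. Its log2 difference was 1.20 ± 0.24 (limma SE, 95% interval 0.60 to 1.81), which did not pass the test (limma adjusted p = 0.112). GUS1 followed at 1.10 ± 0.25 (95% interval 0.46 to 1.73, limma adjusted p = 0.154), with 0.069 and 0.49 after celastrol against −0.88 and −0.76 after heat shock. Along with the mitochondrial serine gene DIA4, which ran the other way and lay close to 0, it was above 0 on both arrays of 1 treatment and below 0 on both of the other. ILS1, THS1, CDC60 and GRS1 had differences of 1.06, 0.95, 0.90 and 0.78, with intervals above 0 and limma adjusted p-values up to 0.289. Without heat shock replicate 2, which leaves a single heat shock array, the differences were 1.31 for VAS1 and 1.17 for ILS1.

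SES1 and MES1, the lowest genes after celastrol, had smaller differences. For SES1 it was 0.60 (95% interval −0.12 to 1.31) and for MES1 0.27 (95% interval −0.29 to 0.83), so a lower ratio after heat shock was not resolved for either. At the other end AIM10 and MSE1 had differences of −0.43 each, with intervals of −1.30 to 0.44 and −1.29 to 0.44. All of these intervals span more than 1 log2 unit.

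**Figure D4:**
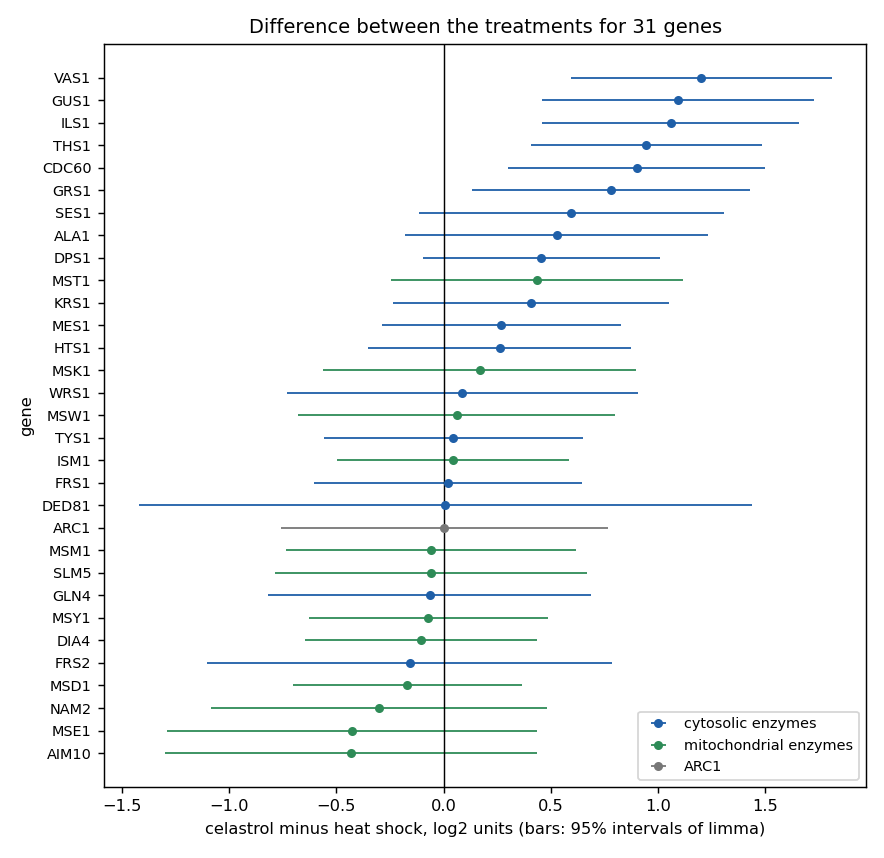
Celastrol minus heat shock in log2 units (x axis) for each of the 31 genes tested (y axis), with 95% intervals from limma as bars. The 6 genes whose intervals lie above 0, VAS1 down to GRS1, are all cytosolic, and no gene passed after adjustment over 5403 genes.

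Across the 31 genes the mean ratios of both treatments correlated with r = 0.71, beside r = 0.57 across all 5403 genes. Within the 18 cytosolic genes r was 0.39 and within the 12 mitochondrial genes 0.56, so part of the value over 31 genes reflects the gap between the sets. The treatments share no array or control sample, but all arrays have the treated sample in Cy5. A dye effect of a probe would therefore push the same way on all 4 arrays. SES1 and THS1 belong to the 357 genes whose 4 ratios are all negative and average −1 or lower. The part of dye in their ratios was not tested. A dye effect of equal size cancels in celastrol minus heat shock.

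**Figure D5:**
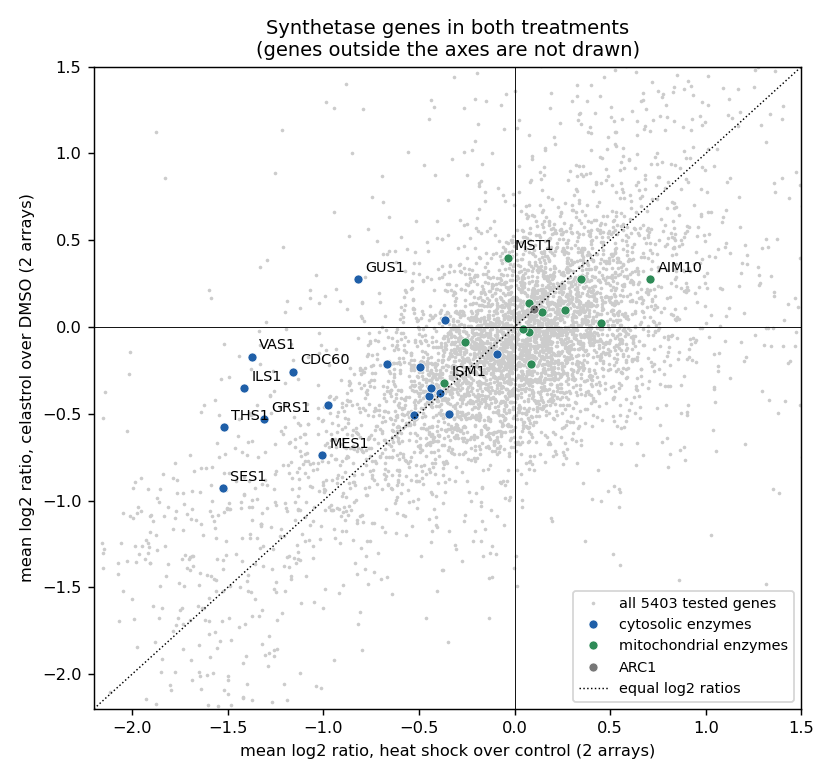
Mean log2 ratio over 2 arrays after heat shock (x axis) and after celastrol (y axis), with all 5403 tested genes in grey, the cytosolic and mitochondrial enzymes and ARC1 in colour, and a dotted line of equal ratios. Most cytosolic genes lie left of 0 and above the dotted line, with VAS1 and GUS1 farthest above it, and the mitochondrial genes lie around the origin.

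Some cytosolic enzymes carry a systematic name or a later symbol and were not on the list of names. The means of YHR020W and YDR341C lay within the range of the 18 cytosolic genes tested. The heat shock mean of CRS1, −0.029, lay above the highest of those 18, −0.090. YHR020W, the proline enzyme, had −0.44 and −0.61 after celastrol and −0.51 and −0.51 after heat shock, where its mitochondrial counterpart AIM10 was above 0 on all 4 arrays. YDR341C, the arginine enzyme, had −0.39 and −0.24 after celastrol and −0.15 and −0.94 after heat shock, and CRS1 (YNL247W), the cysteine enzyme, had −0.18 and 0.27 after celastrol and 0.35 and −0.40 after heat shock. None of the 3 was called in any comparison (0 of 3, lowest limma adjusted p = 0.096 for YHR020W after celastrol).

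Over all genes, 3.85% were called higher and 2.68% lower after celastrol, and 4.28% higher and 4.79% lower after heat shock, beside which the small counts that follow stand. Of 8 genes tested for factors that carry charged tRNA to the ribosome or move it there, 2 fell after heat shock and 0 rose: YEF3, elongation factor 3 (−1.86 ± 0.26, limma adjusted p = 0.029), and TEF4, a subunit of the exchange factor for EF-1A (−1.37 ± 0.53, limma adjusted p = 0.030; both SD, n = 2). After celastrol YEF3 fell (−1.68 ± 0.78, limma adjusted p = 0.041) and MEF2, a mitochondrial factor of the elongation factor G family, rose (1.66 ± 0.20, limma adjusted p = 0.013; both SD, n = 2). Of 20 genes for tRNA end processing and splicing, SEN34, a subunit of the tRNA splicing endonuclease, was the 1 called, lower after heat shock (−1.04 and −0.96, limma adjusted p = 0.024), a share near the 4.79% of all genes called lower there. None of 48 tRNA modification genes, 4 tRNA transport genes, 4 genes for amidation and formylation of mitochondrial tRNA and 5 genes of uncharged tRNA sensing was called in any of the 3 comparisons. The lowest mean among them was that of TRM12, a tRNA modification gene, whose arrays lay far apart, at −1.19 and −2.78 after celastrol and −3.07 and −0.63 after heat shock. FMT1, which formylates the mitochondrial initiator tRNA, had means of −1.33 after celastrol and −1.19 after heat shock. In the sensing group GCN2, whose kinase detects uncharged tRNA, had means of 0.13 after celastrol and −0.31 after heat shock, and GCN4, the transcription factor gene below it, had −0.43 and 0.20.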

How the data were processed

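The authors deposited 1 value per probe and array, taken here as the log2 ratio of treated (Cy5) over control (Cy3), as the labels name the direction. Per the labels, the authors averaged duplicates within each chip and normalized to its median signal. Array software, background correction and spot filter were not given in the sources used here. Base 2 was read from heat shock replicate 1, where 1217 pairs of values differ by the log2 of ratios of whole numbers up to 12 and 16 by their natural log. This could not be read from the other arrays, where base 2 is assumed.

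The platform annotation pairs 5619 of 6415 probes with 1 gene, 76 with several and 720 with none. All 5619 matched the RefSeq gene table (R64), and 0 symbols changed. Probes were averaged per gene, and exact zeros (44, 47, 7 and 4 per array, in the order heat shock 1 and 2, celastrol 1 and 2) were taken as missing, which left out 74 of 5477 genes. The model, from limma 3.58.1 (R 4.3.3), covered 5403 genes, with 1 mean per treatment over 4 arrays, 2 residual and 3.12 prior degrees of freedom, adjusted by Benjamini-Hochberg over all genes, and called under 0.05. The fit was tested on simulated data in which each gene had equal spread on all 4 arrays. A difference in spread between the treatments was not covered there. "Rose" and "fell" refer to called genes. The number of arrays limits the precision, and spot intensities were not analysed here.

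All listed genes are named. The called ones and the extremes have full statistics. The genes, lists and tests were chosen with earlier results of these data known. Motif searches that were planned for promoters were not run, because no promoter sequence was used here. No probe has coordinates here, since the array names no genome build.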

Additional observations from a re-analysis of the deposited data

How the results depend on the processing

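The cytosolic median stayed below the mitochondrial one in both treatments with median-centred arrays, quantile normalization, exact zeros kept, the median of a gene's probes and each array left out. The gap after heat shock was −0.75 with exact zeros kept and −0.93 to −0.86 with an array left out, and the mitochondrial median there was 0.040 to 0.20. The cytosolic median after celastrol was −0.25 with median-centred arrays. Of the 8 synthetase genes called after heat shock, 0 were called with each treatment fitted alone or against 1.5-fold, and 6 with array weights or a trended prior, where MES1 (adjusted p = 0.0540 and 0.0658) and ALA1 (0.0808 and 0.0626) were not. From 0 to 10 genes were called with an array left out. After celastrol the 0 calls became 2 with quantile normalization (MES1 and SES1), 4 with celastrol fitted alone, 3 with array weights and 0 to 4 with an array left out. In the difference they became 0 to 2. Fitting GRS2 and MSR1 on 3 arrays, chosen after the data were seen, added no call. No call among the 31 synthetase genes changed direction. This was not compared for the other named genes. With an array left out, its treatment kept a single array, so the spread in those fits came from the other treatment alone. The heat shock calls made without heat shock replicate 2 were not all cytosolic falls. They included the mitochondrial genes AIM10 and MSE1 as higher, with log2 ratios of 1.10 and 0.87 on the single heat shock array left.

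Over all genes the 490 calls after heat shock became 989 with quantile normalization, 0 fitted alone, 216 with array weights, 305 with a trended prior, 69 against 1.5-fold and 0 to 1582 with an array left out. The 353 after celastrol became 1135, 1522, 1243, 142, 60 and 0 to 1522 in the same order. The 60 in the difference became 164 with quantile normalization, 0 with a trended prior, 31 against 1.5-fold and 0 to 575 with an array left out. The replicate numbers I and II have no stated link between the experiments, and deviations of same-numbered arrays correlated with r = −0.31. With the replicate block the difference had 0 calls, with 1 residual degree of freedom. Centring changed the higher and lower calls after celastrol to 249 and 92, beside 208 and 145.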

Other observations

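Ribosomal protein genes, which serve the same 2 compartments, had the same order of medians. On the celastrol arrays the 124 cytosolic ribosomal protein genes had medians of −0.64 and −1.49, against 0.13 and 0.080 for the 54 mitochondrial ones. On the heat shock arrays the cytosolic medians were −1.73 and −1.42, against 0.066 and 0.050. The gap between compartments after heat shock, −1.66, was wider than the −0.82 between synthetase sets. These genes were selected by their symbols after the synthetase values were seen, and near-identical copies among the cytosolic ones can hybridise to each other's probes.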
